A study of Mus musculus with 9 samples.

Results

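A set of 33 genes, of 19991 in the count table, ranged widely in level from one testis library to the next. Of these, 21 had a step of at least 4-fold between a high and a low set of libraries. The other 12 had a widest gap below that line, some of them close to it, and are called graded. The genes were chosen from the counts themselves: over 9 libraries, the highest count had to be at least 50 and at least 15 times the lowest, and a lowest count of 0 qualified. Of the 36 rows that met both thresholds, 3 adipocyte genes (Car3, Cfd and Cidec) were left out, under a rule that set aside 9 named adipocyte genes. Because the range over the libraries chose the genes, that range is described here and not tested.

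The libraries came from whole testes of 8-week-old mice of ICR, an outbred stock whose animals are not genetically identical. The study asked how testis transcripts differ when KIFC1, a motor protein of the spindle and of the spermatid manchette, is inhibited. The CW069 group was injected with CW069 at 50 µM, the AZ82 group with AZ82 at 1 µM, and the Control group with PBS, and each group held 3 libraries. CW069 and AZ82 are KIFC1 inhibitors known here by their code names. The labels do not say whether the 3 samples of a group came from separate animals, so p-values measure only the sample-to-sample spread within these groups, part of which may be technical. No time after injection, batch or genotype was given.

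Adult testis is made mostly of germ cells at successive stages, supported by Sertoli cells inside the tubules and by steroid-producing Leydig cells between them. It transcribes an unusually wide range of genes, among them genes better known from other organs and large families of recently duplicated genes. Gdf9 is known as a growth factor of the oocyte, Cck as a peptide hormone of gut and brain, and Gm5591 is a predicted gene.

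Total counts ran from 13856070 to 18102593 per library, and 15834 genes passed the filter on low counts, all 33 on/off genes among them. Passing that filter needs high counts in some libraries only, so it is no support for any difference. CW069 1 and CW069 2 were more alike than any other pair of libraries: a chi-square over 15566 genes gave 3.48 per gene for them, against 4.76 to 34.8 in the other pairs. They differed by more than sampling noise, and were counted as separate libraries. Control 3 was the library farthest from the rest, and a list of 15 elongating spermatid genes summed to 8564 CPM there against 15726 to 22801 CPM in the other libraries. CPM is the count scaled to library size, with the size corrected for library composition by TMM. The spermatocyte list summed to between 6822 and 7445 CPM in all 9 libraries, and the Leydig list to between 1694 and 2191 CPM.

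**Figure D1:**
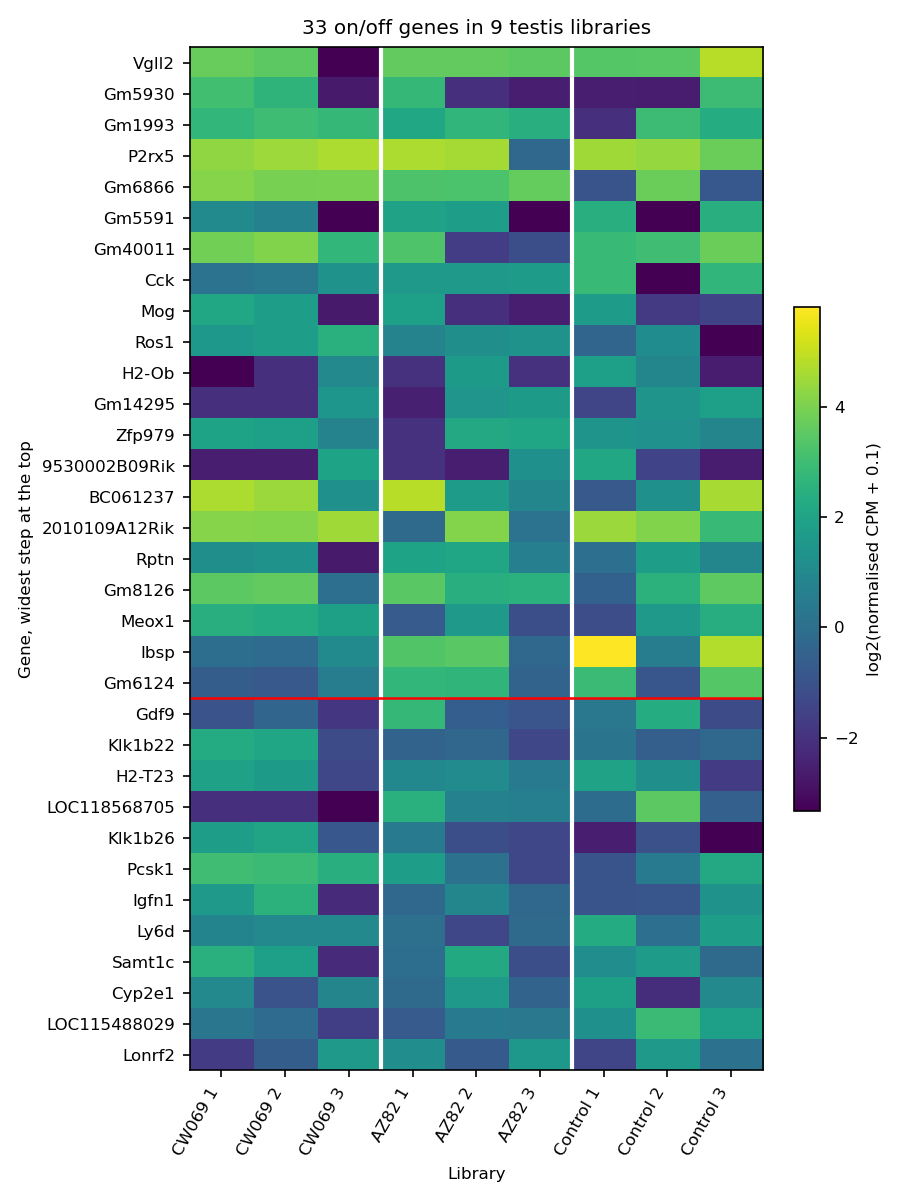
Level of each of the 33 on/off genes (rows, widest step at the top) in each library (columns, grouped as CW069, AZ82 and Control), as log2(CPM + 0.1); white lines divide the groups. The 21 genes above the red line had a step of at least 4-fold between neighbouring libraries, and in 0 of 33 genes did the libraries on the high side form exactly 1 whole group.

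The label of an on/off gene was checked by ordering the 9 libraries of each gene by log2(CPM + 0.1) and taking the widest gap between neighbours. In 21 of 33 genes that gap was at least 4-fold, which is 2 on the log2 scale, and the other 12 are called graded. Of the 3 genes that mark the set, Cck and Gm5591 had a step, and Gdf9 fell just short with a gap of 1.97. The Gdf9 gap lay between 4.88 CPM in Control 2 and 1.17 CPM in Control 1, just over 4-fold before 0.1 is added. Klk1b22 and H2-T23 came next among the graded genes, each at 1.87. The median gap was 2.67 on the log2 scale and the widest was 6.73, in Vgll2. The heatmap of levels by library shows both kinds. A lowest count of 0 was found in 7 genes: Cck, Gm5591, H2-Ob, Klk1b26, LOC118568705, Ros1 and Vgll2.

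The set is one of modest counts. The highest count of a gene had a median of 91 and ran from 50 for H2-Ob to 812 for Ibsp. Close to the threshold, H2-Ob had 50 and 0 counts as its highest and lowest, Cyp2e1 52 and 2, Gm14295 52 and 1, Lonrf2 52 and 3, and Meox1 77 and 5. Just outside it lay Gm5645 with 49 and 0 counts, Slc26a5 with 48 and 1, and Chil3, Gm1988 and Gpnmb with 48 and 3 each. Genes on the 2 sides of the line therefore had nearly the same counts.

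Gdf9, the oocyte growth factor of the TGF-beta family, stood at 0.411, 0.684 and 0.170 CPM in CW069 1 to 3, at 6.62, 0.571 and 0.433 CPM in AZ82 1 to 3, and at 1.17, 4.88 and 0.333 CPM in Control 1 to 3. It was high in AZ82 1 and Control 2 alone, and all 3 groups overlapped. In whole testis RNA, fewer cells of a type and less RNA per cell cannot be told apart. Bmp15, the factor that pairs with GDF9 in the oocyte, was at 0 counts in 7 libraries and at 0.0690 and 0.0665 CPM in Control 1 and Control 3.

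The gene next to Gdf9 followed it. Uqcrq, which encodes a subunit of mitochondrial complex III, lies beside Gdf9 on chromosome 11 and is read in the other direction (gene order and chromosomes here are from RefSeq, GRCm38.p6). Its level was 71.6, 61.9 and 66.7 CPM in CW069 1 to 3, 103, 76.5 and 64.4 CPM in AZ82 1 to 3, and 65.3, 92.7 and 64.1 CPM in Control 1 to 3. AZ82 1 and Control 2 were thus the highest libraries of both genes, and Pearson's r of their log2 levels over the 9 libraries was 0.85. All such r values are descriptions over libraries that share their groups, and carry no test. Aff4, 3 genes away, ran from 143 to 157 CPM with r = -0.11. Whether the counting used strand is not given in the sources used here, and without it reads of overlapping transcripts cannot be told apart.

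The receptors that GDF9 signals through were detected in every library. Bmpr2, its type II receptor, ran from 17.7 CPM in AZ82 1 to 28.2 CPM in AZ82 3, and Tgfbr1, its type I receptor, from 57.0 CPM in AZ82 1 to 71.6 CPM in Control 2. Of 15 tested genes in a list of GDF9 signalling, 0 passed an adjusted p of 0.05 in any of the 3 comparisons (edgeR quasi-likelihood test, Benjamini-Hochberg over all genes). Over the list, the median log2 fold change was -0.06 for CW069 against Control and -0.16 for AZ82 against Control, beside -0.00 for all tested genes in each. At an unadjusted p under 0.05, 0 of the 15 moved in CW069 against Control. In AZ82 against Control 5 were lower: the signal transducers Smad2 and Smad3, the proprotein-cleaving enzymes Furin and Pcsk6, and the activin antagonist Fst; 4.79% of all tested genes were lower at that p. In CW069 against AZ82 3 were higher, Smad3, Fst and Inha, the inhibin alpha subunit, beside 2.58% of all tested genes.

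**Figure D2:**
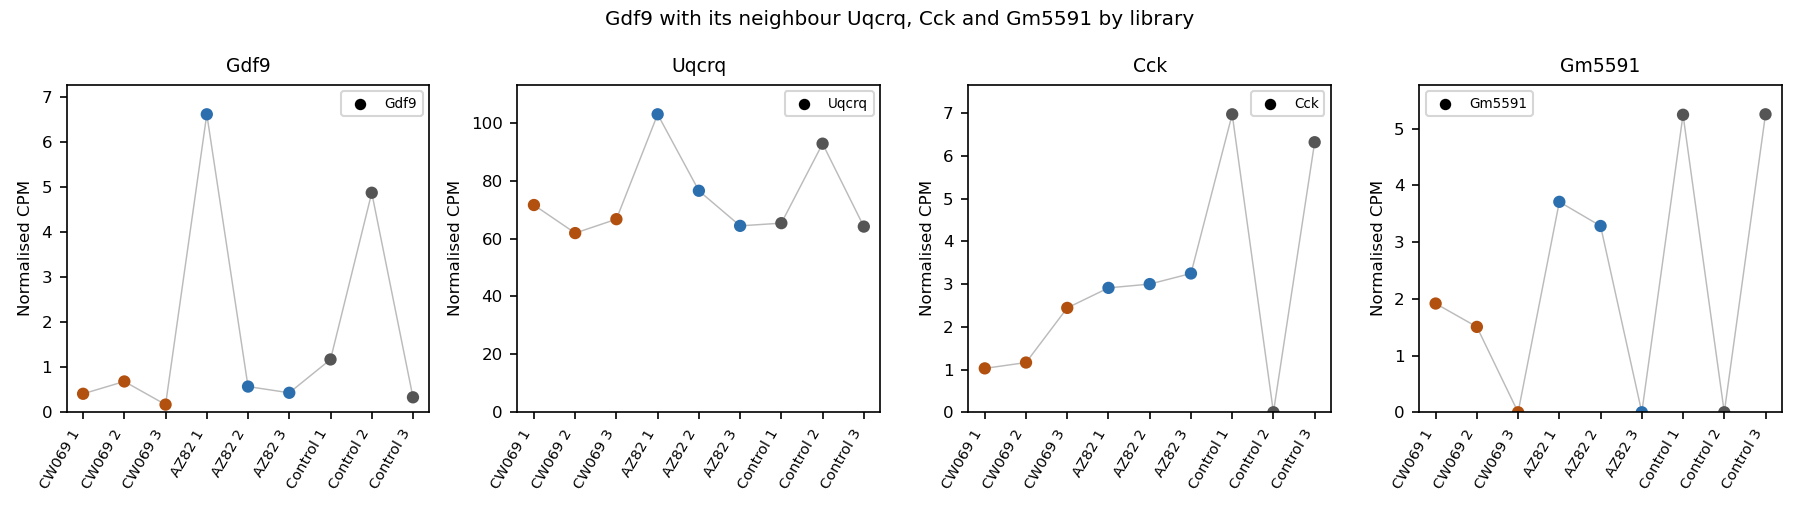
Level in CPM (vertical axes, each from 0) of Gdf9, its neighbour Uqcrq, Cck and Gm5591 in each library (horizontal axes, CW069 left, AZ82 middle, Control right). Gdf9 and Uqcrq both peaked in AZ82 1 and Control 2, Cck was at 0 in Control 2 alone, and Gm5591 was at 0 in CW069 3, AZ82 3 and Control 2.

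Cck, the precursor of cholecystokinin, stood at 1.03, 1.16 and 2.44 CPM in CW069 1 to 3, at 2.91, 3.00 and 3.25 CPM in AZ82 1 to 3, and at 6.97, 0 and 6.32 CPM in Control 1 to 3. Control 2 held no Cck read at all (3 reads there would be 0.193 CPM), while the other Control libraries were the highest of the 9. CW069 and AZ82 did not overlap, and Control spanned both. Pcsk1, the convertase that cuts prohormones such as the cholecystokinin precursor, belongs to the set too. The gene stood at 8.01, 7.46 and 5.28 CPM in CW069 1 to 3, at 3.27, 1.00 and 0.289 CPM in AZ82 1 to 3, and at 0.414, 1.28 and 4.46 CPM in Control 1 to 3. All 3 CW069 libraries lay above every AZ82 and Control library; Control 2, which lacked Cck, had 1.28 CPM of Pcsk1.

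The rest of the cholecystokinin system either had a narrower range than Cck and Pcsk1 or was barely detected. Pcsk2 ran from 3.92 CPM in Control 3 to 6.93 CPM in Control 2. Cckar, the gut-type receptor, had reads in AZ82 3 alone, at 0.0722 CPM, and Cckbr, the brain-type receptor, ran from 0.0568 to 0.321 CPM. Cpe, which trims peptide ends after the convertase cut, ran from 112 CPM in AZ82 1 to 160 CPM in CW069 2. In that list of 10 genes, 7 were tested and 0 passed an adjusted p of 0.05 in any comparison. At an unadjusted p under 0.05, Pcsk1 alone was higher in CW069 against Control (3.63% of all tested genes were), and Cpe alone was lower in AZ82 against Control (4.79%). Pcsk1 and Cpe were both higher in CW069 against AZ82 (2.58%).

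The promoters of this hormone and its convertase are shown because both are textbook targets of cyclic AMP signalling. They come from RefSeq, GRCm38.p6, from 250 bases before to 50 after each gene start, and 26 of the 33 genes had an entry. Cck is at chr9:121495645-121495944 on the minus strand and Pcsk1 at chr13:75089607-75089906 on the plus strand, each written 5′ to 3′ along its gene. Capitals mark TGACGTCA, the full cyclic AMP element, TGACGC, a short form of it found in the known Cck promoter element, and CACGTG, an E-box.
Cck: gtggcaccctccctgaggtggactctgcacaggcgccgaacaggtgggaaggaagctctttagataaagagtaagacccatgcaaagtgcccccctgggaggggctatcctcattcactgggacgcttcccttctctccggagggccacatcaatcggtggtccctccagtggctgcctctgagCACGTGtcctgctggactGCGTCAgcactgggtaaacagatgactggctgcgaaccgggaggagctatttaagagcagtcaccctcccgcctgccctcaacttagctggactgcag
Pcsk1: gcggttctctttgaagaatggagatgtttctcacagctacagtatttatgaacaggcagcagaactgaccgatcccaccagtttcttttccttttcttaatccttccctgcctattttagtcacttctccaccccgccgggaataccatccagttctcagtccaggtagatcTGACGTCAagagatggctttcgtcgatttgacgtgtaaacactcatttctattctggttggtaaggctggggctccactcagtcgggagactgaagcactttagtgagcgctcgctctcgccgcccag
TGACGTCA, read on both strands, was in the Pcsk1 promoter at -78 from the start and in 1.79% of all 32851 promoters of the table. TGACGC was in the Cck promoter at -48 on the reverse strand, where it reads GCGTCA, and in 7.40% of all promoters. CACGTG was there at -66 and in 7.15% of all promoters. A match is a description of letters only, and the marked motifs do not overlap in these sequences.

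Gm5591 stood at 1.92, 1.51 and 0 CPM in CW069 1 to 3, at 3.71, 3.28 and 0 CPM in AZ82 1 to 3, and at 5.25, 0 and 5.25 CPM in Control 1 to 3. One library of every group held no read, where 3 reads would be 0.170 CPM in CW069 3, 0.216 CPM in AZ82 3 and 0.193 CPM in Control 2. Of its 31-base words, 70.1% also occur in other genes' transcripts, so that its reads can be lost or placed in a copy. Gm6866, a similar predicted gene 20 genes away on chromosome 7, had a different pattern. The gene stood at 17.7, 15.1 and 15.5 CPM in CW069 1 to 3, at 9.46, 9.21 and 12.5 CPM in AZ82 1 to 3, and at 0.414, 13.5 and 0.466 CPM in Control 1 to 3. Control 1 and Control 3 were low for Gm6866 and high for Gm5591, and Control 2 was the reverse.

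The promoters of Gm5591 and Gm6866 are shown because they are nearly the same sequence while the genes differed in which libraries had them. Gm5591 is at chr7:38528144-38528443 on the minus strand and Gm6866 at chr7:41209771-41210070 on the plus strand (RefSeq, GRCm38.p6). Capitals mark TGACCTT, the reverse complement of AAGGTCA, the site that steroidogenic factor 1 is known to recognise.
Gm5591: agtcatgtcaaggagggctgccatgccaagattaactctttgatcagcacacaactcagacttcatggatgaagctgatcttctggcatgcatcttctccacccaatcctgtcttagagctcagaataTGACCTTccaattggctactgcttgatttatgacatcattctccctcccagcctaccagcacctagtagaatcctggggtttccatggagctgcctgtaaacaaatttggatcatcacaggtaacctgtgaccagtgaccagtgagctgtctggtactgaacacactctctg
Gm6866: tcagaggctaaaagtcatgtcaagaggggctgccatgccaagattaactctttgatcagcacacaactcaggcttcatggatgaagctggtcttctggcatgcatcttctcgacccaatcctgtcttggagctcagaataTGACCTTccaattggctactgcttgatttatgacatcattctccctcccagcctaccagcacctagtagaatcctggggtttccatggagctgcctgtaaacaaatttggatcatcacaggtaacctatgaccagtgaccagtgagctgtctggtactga
Aligned, they were identical at 281 of 288 bases (97.6%). AAGGTCA, sought on both strands, lay at -122 in Gm5591 and at -110 in Gm6866, and it was in 4.72% of all promoters. Among the 26 promoters of on/off genes it was also found in that of Gm8126, giving 3 in all.

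The genes most like the 3 markers over the 9 libraries included several with a much smaller range. With a mean of at least 1 CPM required, the highest r with Gdf9 belonged to Ramp3 (0.96), Fry (0.94) and Gm6121 (0.91), and Ramp3 ran only from 4.77 CPM in CW069 3 to 8.22 CPM in AZ82 1. For Cck they were Tbr1 (0.95), Cacng7 (0.92) and Il33 (0.92), with Tbr1 between 0.706 CPM in Control 2 and 2.33 CPM in Control 3. For Gm5591 they were Cyth2 (0.94), Asb13 (0.93) and Plrg1 (0.93), with Plrg1 between 42.8 CPM in Control 2 and 53.5 CPM in Control 3. These 9 genes were picked from 14963 by that likeness, so their r values are not evidence of a link.

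Vgll2 and Ros1 are neighbours on chromosome 10 that face each other, and each vanished from 1 library. Vgll2, a cofactor of TEAD transcription factors known from skeletal muscle, was at 12.7, 11.4 and 0 CPM in CW069 1 to 3, at 12.2, 12.3 and 11.4 CPM in AZ82 1 to 3, and at 10.5, 10.7 and 28.6 CPM in Control 1 to 3. It was the widest step of the set: 7 libraries lay between 10.5 and 12.7 CPM, CW069 3 held none of its reads (3 would be 0.170 CPM), and Control 3 had 430 counts. Ros1, a receptor tyrosine kinase best known in the epididymis, was at 2.81, 3.28 and 5.40 CPM in CW069 1 to 3, at 1.60, 2.21 and 2.45 CPM in AZ82 1 to 3, and at 0.690, 2.05 and 0 CPM in Control 1 to 3. The library with no Vgll2 read thus had the most Ros1, and the library with no Ros1 read had the most Vgll2. Over all 9 libraries r between the 2 genes was -0.52.

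The genes around them had narrower ranges, and some varied with the pair. Gopc, 2 genes from Ros1, ran from 34.9 to 41.8 CPM with its highest level in CW069 3, and had r = -0.59 with Vgll2 and 0.10 with Ros1. Cep85l (148 to 341 CPM) and Pln (12.6 to 19.98 CPM) had r of 0.74 and 0.73 with Ros1, and Mcm9 had r = -0.71 with Vgll2. Rfx6, on the other side of Vgll2, had r = 0.18 with it. Of the epididymis list, which includes Ros1, 25 genes had a row and 5 were tested. Lcn5, Lcn6, Lcn8, Adam7 and Adam28 had 0 counts in most libraries and at most 0.0722 CPM. Rnase10 and Spink8 had reads in every library, up to 5.17 CPM in AZ82 1 and 3.24 CPM in Control 1. The list summed to 207 to 246 CPM in CW069, 190 to 239 CPM in AZ82 and 166 to 243 CPM in Control. Those sums came mainly from Cst8 and Aqp9, which were between 69.2 and 157 CPM. At an unadjusted p under 0.05 in edgeR, Spink8 was lower in CW069 against Control (3.71% of all tested genes were) and in AZ82 against Control (4.79%). Ros1 was higher in CW069 against Control (3.63%), and Rnase10 was lower in CW069 against AZ82 (2.39%). For Spink8, CW069 and Control overlapped, with 0.958 CPM in CW069 2 and 0.899 CPM in Control 2. None of the tested epididymis genes passed an adjusted p of 0.05. Skeletal muscle genes summed to 30.4 to 34.5 CPM in CW069, 30.3 to 36.7 CPM in AZ82 and 29.3 to 31.1 CPM in Control. Those sums came mainly from Actn3 (9.93 to 13.2 CPM) and Ttn (6.63 to 11.8 CPM). Single genes varied more: Ckm ran from 0.200 CPM in Control 3 to 1.43 CPM in AZ82 2. At an unadjusted p under 0.05, Ckm and Tnnc2 were higher in AZ82 against Control (4.04% of all tested genes were). In CW069 against Control, Myh1 was higher (3.63%) and Atp2a1 lower (3.71%). Of 9 tested genes in the list, 0 passed an edgeR adjusted p of 0.05.

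Their promoters are shown as the start regions of the pair with the opposite extremes. Vgll2 is at chr10:52022252-52022551 on the plus strand and Ros1 at chr10:52195195-52195494 on the minus strand (RefSeq, GRCm38.p6). Capitals mark CACGTG and the reverse complement of TGACGC.
Vgll2: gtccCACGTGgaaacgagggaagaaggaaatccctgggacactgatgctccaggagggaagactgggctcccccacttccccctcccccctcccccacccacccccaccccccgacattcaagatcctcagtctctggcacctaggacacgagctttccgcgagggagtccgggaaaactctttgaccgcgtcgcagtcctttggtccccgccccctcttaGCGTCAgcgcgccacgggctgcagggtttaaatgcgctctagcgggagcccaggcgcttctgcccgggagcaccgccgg
Ros1: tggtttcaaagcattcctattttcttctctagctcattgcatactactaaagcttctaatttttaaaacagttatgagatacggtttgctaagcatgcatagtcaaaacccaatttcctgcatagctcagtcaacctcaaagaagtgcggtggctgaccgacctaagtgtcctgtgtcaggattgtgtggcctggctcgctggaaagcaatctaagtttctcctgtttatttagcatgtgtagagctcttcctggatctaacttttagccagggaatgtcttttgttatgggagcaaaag
In Vgll2 CACGTG lay at -246 and TGACGC at -29 on the reverse strand. Neither was in these 300 bases of Ros1, nor were AAGGTCA and TGACGTCA.

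Antigen presentation genes of chromosome 17 made up another group. H2-Ob, the beta chain of the class II modulator of B cells, was at 0, 0.137 and 1.87 CPM in CW069 1 to 3, at 0.146, 3.07 and 0.144 CPM in AZ82 1 to 3, and at 3.45, 1.73 and 0.0665 CPM in Control 1 to 3. It was present in CW069 3, AZ82 2, Control 1 and Control 2, so each group held both states. Tap2, the peptide transporter subunit next to it, had r = 0.99 with H2-Ob and stood at 3.15, 4.65 and 10.8 CPM in CW069 1 to 3, at 3.86, 11.1 and 4.40 CPM in AZ82 1 to 3, and at 11.7, 11.2 and 3.39 CPM in Control 1 to 3. Tap1 (0.96), Psmb8 (0.93) and Psmb9 (0.86), the other transporter subunit and a pair of immunoproteasome subunits, kept the same 4 libraries on top. None of these neighbours was at 0 in any library: Tap1 had 2.69 CPM at its lowest and Psmb8 1.09 CPM.

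On the other side of H2-Ob the class II genes H2-Ab1 and H2-Eb1 had r of 0.75 and 0.79, and H2-Aa between them 0.09. Cd74, the class II invariant chain encoded elsewhere in the genome, was at 4.32 CPM in CW069 3 and at 13.0 CPM in CW069 2, against the order of H2-Ob there. Macrophage genes summed to 176 to 227 CPM in CW069, 172 to 236 CPM in AZ82 and 216 to 284 CPM in Control over 15 of 15 tested genes, and lymphocyte genes to 13.96 to 16.6 CPM, 13.1 to 20.3 CPM and 14.8 to 18.4 CPM in the same groups. Of the 4 libraries with H2-Ob, CW069 3 had the lowest macrophage sum of its group (176 CPM), AZ82 2 the highest of its group (236 CPM), and Control 1 and Control 2 the 2 highest of theirs (284 and 244 CPM). The part of either cell type in the H2-Ob pattern was not tested.

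H2-T23 encodes Qa-1, a nonclassical class I molecule. It stood at 3.63, 3.01 and 0.284 CPM in CW069 1 to 3, at 1.82, 2.0 and 1.30 CPM in AZ82 1 to 3, and at 3.73, 2.25 and 0.200 CPM in Control 1 to 3, low in CW069 3 and Control 3. Its neighbour and relative H2-T22 had r = 0.94 with it, and 51.0% of the 31-base words of H2-T22 occur in 1 or more other genes. Abcf1, a translation factor 4 genes away with 4.93% of its words shared, had r = 0.88, with 160 CPM in CW069 2 as its highest and 88.8 CPM in Control 3 as its lowest level. Mog, myelin oligodendrocyte glycoprotein, lies 25 genes from H2-T23 and was at 4.31, 3.35 and 0.0568 CPM in CW069 1 to 3, at 3.42, 0.143 and 0.0722 CPM in AZ82 1 to 3, and at 3.24, 0.193 and 0.266 CPM in Control 1 to 3. CW069 1, CW069 2, AZ82 1 and Control 1 carried it, which do not make up any whole group. Its neighbour Znrd1, an RNA polymerase I subunit, had r = 0.85 over a range of 16.2 to 29.4 CPM.

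**Figure D3:**
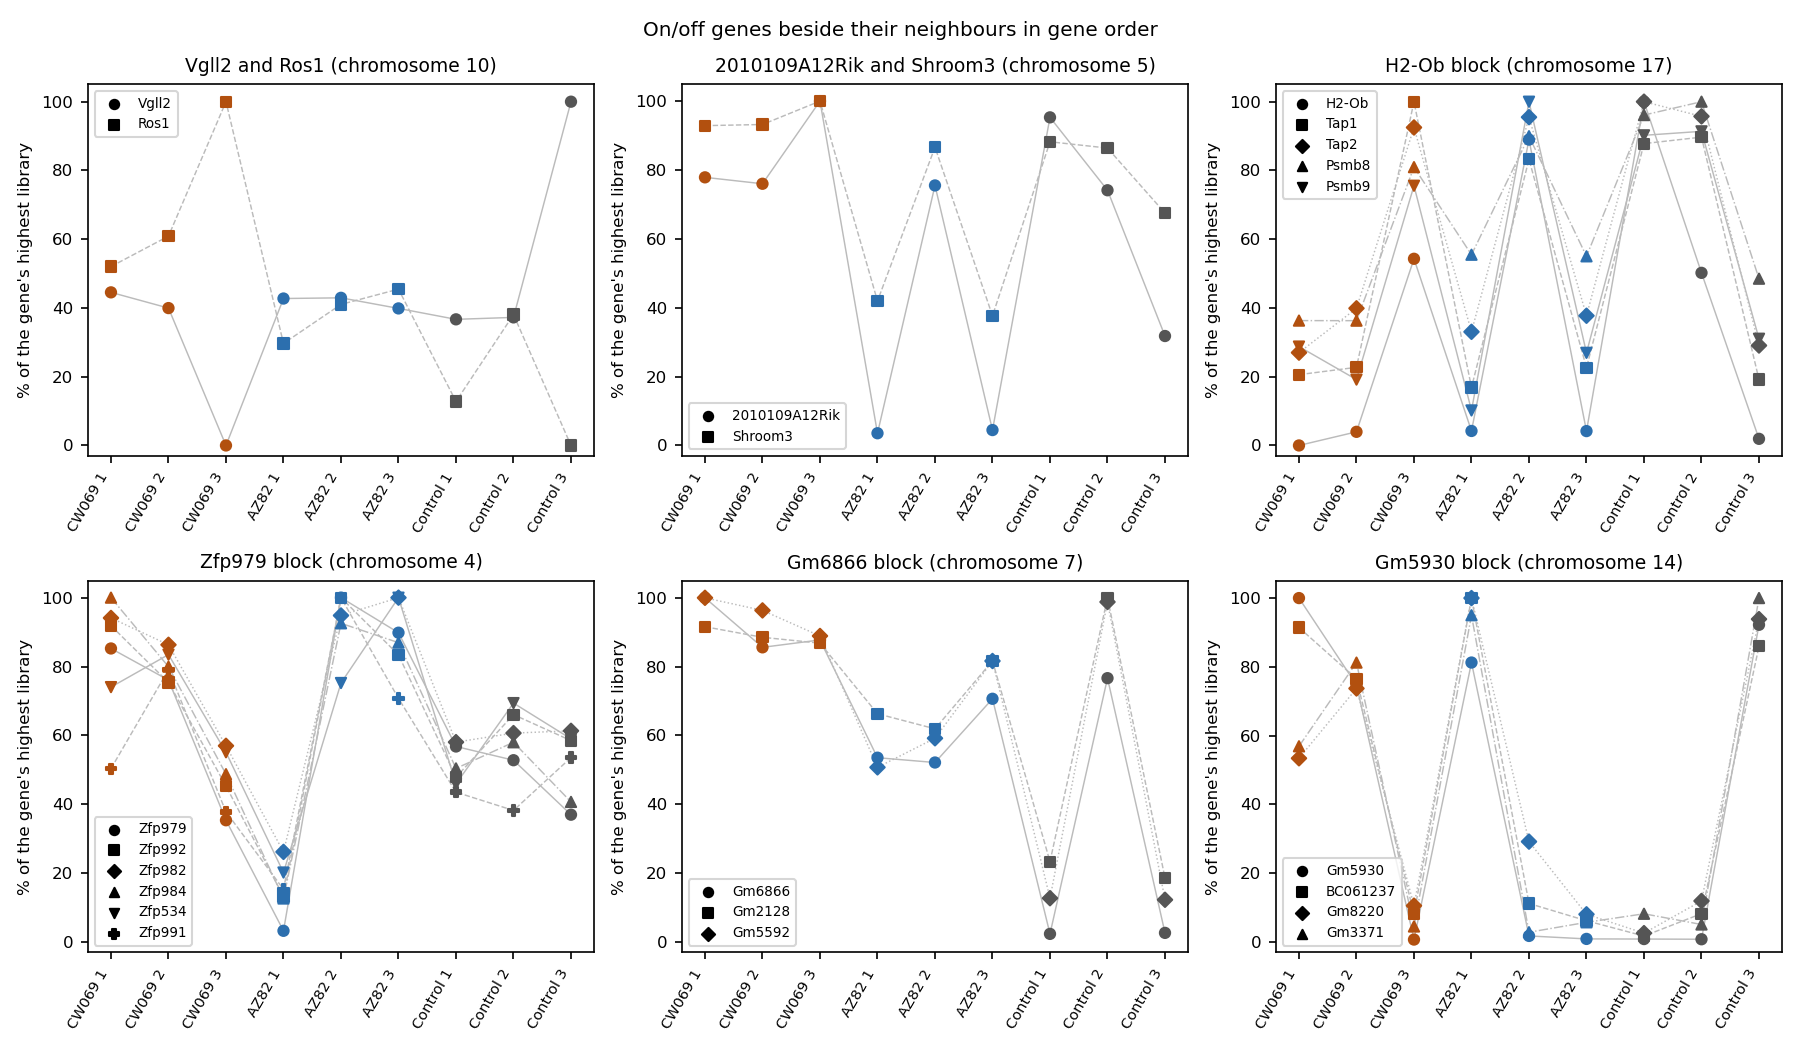
Level of on/off genes and of genes near them in gene order, in each library (horizontal axes, CW069 left, AZ82 middle, Control right), as a percentage of each gene's own highest library (vertical axes); lines join the libraries of a gene. Vgll2 and Ros1 had opposite extremes, and in the other 5 panels the neighbours kept the on/off gene's high and low libraries with a smaller range, as for Shroom3 beside 2010109A12Rik (r = 0.99).

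Similar neighbours, by the size of r in either direction, were found for 19 of the 32 genes with a known place in the gene order. Among 426 pairs of an on/off gene and a gene with a mean of at least 1 CPM within 10 genes of it, 52 (12.2%) had an r of at least 0.8 in size, 46 positive and 6 negative. The share of all 14963 such genes that were this similar to an on/off gene had a median of 1.03% and a highest value of 4.95%. Of the 52 pairs, 35 joined an on/off gene to a neighbour outside the set with more than 10% of its 31-base words in other genes. Among pairs with a neighbour outside the set and at most 10% of its words shared, 15 of 260 (5.77%) were this similar, in 11 on/off genes, beside a median of 1.01% and a highest value of 4.93% of all such genes. Among those 15 pairs, Zfp69, Txndc16, Txndc9, Ly6k and Mfn2 ran opposite to their on/off gene. Their r values were -0.95, -0.83, -0.81, -0.81 and -0.82. All these shares describe the 9 libraries and carry no test.

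One such neighbour with little shared sequence was Shroom3. 2010109A12Rik, a gene of chromosome 5, was at 17.6, 17.2 and 22.6 CPM in CW069 1 to 3, at 0.80, 17.1 and 1.01 CPM in AZ82 1 to 3, and at 21.5, 16.8 and 7.18 CPM in Control 1 to 3. Shroom3, an actin-binding protein that shapes epithelial cells, lies 3 genes away. It stood at 113, 114 and 122 CPM in CW069 1 to 3, at 51.2, 106 and 46.0 CPM in AZ82 1 to 3, and at 108, 105 and 82.4 CPM in Control 1 to 3. Both genes were lowest in AZ82 1 and AZ82 3, and only 0.680% of the words of Shroom3 were shared.

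P2rx5, an ATP-gated ion channel, was low in 1 library. The gene stood at 19.7, 22.04 and 25.4 CPM in CW069 1 to 3, at 25.7, 23.9 and 0.722 CPM in AZ82 1 to 3, and at 22.8, 20.6 and 13.6 CPM in Control 1 to 3, so that AZ82 3 stood alone. Its neighbour Camkk1, a calcium-dependent kinase, was also lowest there (r = 0.82), at 1.37 CPM in AZ82 3 beside 2.18 to 4.04 CPM in the other libraries.

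The kallikrein genes Klk1b22 and Klk1b26 lie 2 genes apart on chromosome 7, in a cluster of secreted serine proteases of which several are made by mouse Leydig cells. Klk1b22 was at 4.86, 4.04 and 0.341 CPM in CW069 1 to 3, at 0.655, 0.714 and 0.289 CPM in AZ82 1 to 3, and at 1.04, 0.578 and 0.732 CPM in Control 1 to 3. Klk1b26 was at 3.29, 3.97 and 0.454 CPM in CW069 1 to 3, at 1.31, 0.357 and 0.289 CPM in AZ82 1 to 3, and at 0.0690, 0.385 and 0 CPM in Control 1 to 3. Both were high in CW069 1 and CW069 2, the pair of libraries that was most alike, and CW069 3 was not with them. The much better covered Klk1b21 and Klk1b27 of the cluster were also highest in those 2 libraries, at 65.9 and 67.6 CPM and at 41.6 and 42.2 CPM, and AZ82 2 came next with 51.6 and 29.7 CPM. The cluster did not vary as one: Klk1b24 was highest in AZ82 2, at 55.1 CPM beside 46.9 and 54.2 CPM in CW069 1 and CW069 2, and Klk1b8, Klk1b9, Klk1b3 and Klk1b5 had r of -0.20, -0.40, -0.48 and -0.50 with Klk1b22.

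The summed level of Leydig cell genes was lowest in the CW069 libraries. The sum of 12 Leydig markers was 1694, 1697 and 1767 CPM in CW069 1 to 3, 1791, 2101 and 1831 CPM in AZ82 1 to 3, and 2044, 2191 and 2110 CPM in Control 1 to 3. All 3 CW069 libraries thus lay below every Control library, as they did for 7.24% of all tested genes taken singly. The sum itself was not tested. Of the 12 markers, 7 were lower and 0 higher in CW069 against Control at an unadjusted p under 0.05 in edgeR. That held for 3.71% (lower) and 3.63% (higher) of all tested genes. None of the markers passed an adjusted p of 0.05, and the part of Leydig cells in the Klk1b values was not tested. Of the 31-base words of Klk1b22 and Klk1b26, 41.1% and 28.3% occur in other genes, so their counts are uncertain.

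The promoters of this pair are shown because both genes were highest in CW069 1 and CW069 2. Over the 9 libraries their r was 0.67. Klk1b22 is at chr7:44112423-44112722 and Klk1b26 at chr7:44012428-44012727, both on the plus strand (RefSeq, GRCm38.p6), in lower case throughout because none of the 4 motifs named here was found in them.
Klk1b22: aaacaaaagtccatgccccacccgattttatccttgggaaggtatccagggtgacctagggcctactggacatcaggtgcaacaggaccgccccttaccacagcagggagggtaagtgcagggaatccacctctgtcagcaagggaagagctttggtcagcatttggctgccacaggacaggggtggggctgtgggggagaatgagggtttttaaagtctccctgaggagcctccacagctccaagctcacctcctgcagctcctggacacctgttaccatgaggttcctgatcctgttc
Klk1b26: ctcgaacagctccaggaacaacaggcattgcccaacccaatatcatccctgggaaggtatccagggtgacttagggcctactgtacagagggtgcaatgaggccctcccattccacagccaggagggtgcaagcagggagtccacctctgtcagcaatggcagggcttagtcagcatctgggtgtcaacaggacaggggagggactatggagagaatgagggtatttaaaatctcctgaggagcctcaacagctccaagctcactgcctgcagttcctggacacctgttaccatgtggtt
They were identical at 239 of 288 aligned bases (83.0%). Klk1b27, between them in gene order, matched Klk1b22 at 80.9% and Klk1b26 at 85.3% of aligned bases.

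Zinc finger and other repeat families formed blocks. Zfp979, a KRAB-type zinc finger gene of chromosome 4, was at 3.83, 3.42 and 1.59 CPM in CW069 1 to 3, at 0.146, 4.50 and 4.04 CPM in AZ82 1 to 3, and at 2.55, 2.37 and 1.66 CPM in Control 1 to 3. AZ82 1 was the low library. The related genes near it followed: Zfp984 (r = 0.98) was at 1.38 CPM in AZ82 1 beside 4.46 to 10.96 CPM elsewhere, and Zfp992 (0.98), Zfp982 (0.96), Zfp534 (0.93) and Zfp991 (0.89) were lowest there too. Between 29.7% and 88.0% of the words of these 5 genes are shared. Mfn2, a mitochondrial fusion gene 6 genes away with 0.0190% of its words shared, had r = -0.82 and was highest in AZ82 1, at 317 CPM beside 276 to 306 CPM elsewhere.

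Gm5930 and BC061237, 4 genes apart on chromosome 14, were the most alike of the set's genes that lie within 10 genes of each other (r = 0.95). Gm5930 was at 8.15, 6.09 and 0.0568 CPM in CW069 1 to 3, at 6.62, 0.143 and 0.0722 CPM in AZ82 1 to 3, and at 0.0690, 0.0642 and 7.52 CPM in Control 1 to 3. BC061237 was at 25.7, 21.5 and 2.27 CPM in CW069 1 to 3, at 28.1, 3.14 and 1.73 CPM in AZ82 1 to 3, and at 0.483, 2.31 and 24.1 CPM in Control 1 to 3. CW069 1, CW069 2, AZ82 1 and Control 3 carried both genes. Other predicted genes of the block, Gm8220 and Gm3371, had r of 0.91 and 0.97 with Gm5930, and 76.2% of the words of Gm5930 itself are shared. Gm8126, 16 genes from Gm5930, was low in CW069 3 and Control 1, at 0.909 and 0.621 CPM, and between 5.14 and 12.3 CPM in the others. Gm6124 on chromosome 7 was high in AZ82 1, AZ82 2, Control 1 and Control 3, at 6.14 to 10.6 CPM, and at 0.449 to 1.36 CPM in the others. Gm6605 (0.96) and Gm21129 (0.95) near it were highest in the same 4 libraries over smaller ranges.

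Predicted genes and genes with shared sequence made up a larger share of the set than of all tested genes, as a description with no test. The comparison was not matched for level: the median of mean CPM was 2.34 in the set and 18.7 over all tested genes. Predicted symbols (Gm or LOC and digits, or ending in Rik) made up 12 of 33 (36.4%), beside 5.58% of the genes tested. More than 10% of 31-base words were shared in 12 of the 29 on/off genes with a GENCODE transcript (41.4%), beside 13.0% of tested genes. The split was uneven: it held for 7 of 9 predicted genes and for 5 of 20 others, and 12 of the 29 shared no word at all. The remaining predicted genes were Gm1993, low in Control 1 alone at 0.138 CPM beside 4.29 to 7.80 CPM elsewhere, Gm40011, low in AZ82 2 and AZ82 3 at 0.214 and 0.361 CPM beside 6.53 to 16.8 CPM, and Gm14295, which was low in CW069 1, CW069 2, AZ82 1 and Control 1. Another, 9530002B09Rik, was high in CW069 3, AZ82 3 and Control 1 at 2.31 to 4.21 CPM.

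Ibsp, bone sialoprotein, had the widest range of counts. It stood at 0.890, 0.821 and 1.93 CPM in CW069 1 to 3, at 9.97, 10.9 and 0.722 CPM in AZ82 1 to 3, and at 56.1, 1.35 and 27.1 CPM in Control 1 to 3. Its 4 high libraries, AZ82 1, AZ82 2, Control 1 and Control 3, were also the 4 high libraries of Gm6124, a gene of another chromosome. Meox1, a homeobox factor of the early somite, was at 5.27, 4.79 and 3.52 CPM in CW069 1 to 3, at 0.509, 2.93 and 0.361 CPM in AZ82 1 to 3, and at 0.345, 2.95 and 5.05 CPM in Control 1 to 3. AZ82 1, AZ82 3 and Control 1 were its low libraries. Rptn, a protein of the epidermal cornified envelope, was low in CW069 3 alone, at 0.0568 CPM beside 0.897 to 4.14 CPM. By raw count, CW069 3 was lowest or tied for lowest in 10 genes and highest in 7, more than any other library in either direction. It also had the largest total, 18102593 counts. Scaled to CPM, other libraries were highest for 9530002B09Rik, Gm1993, Gm6866 and P2rx5, whose highest raw counts were in CW069 3.

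Graded genes filled the rest of the set. Igfn1, known from skeletal muscle, was lowest in CW069 3 at 0.114 CPM and highest in CW069 2 at 5.75 CPM. Samt1c, of an X-linked testis family, ran from 0.114 CPM in CW069 3 to 5.48 CPM in CW069 1, and Lonrf2, a RING finger protein, from 0.205 CPM in CW069 1 to 2.95 CPM in CW069 3. For these genes the extremes thus lay inside the CW069 group. Ly6d, a GPI-anchored surface protein of early B cells and epithelia, was at 1.64, 1.85 and 1.87 CPM in CW069 1 to 3, at 0.946, 0.286 and 0.794 CPM in AZ82 1 to 3, and at 4.83, 0.899 and 3.39 CPM in Control 1 to 3.

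Cyp2e1, an ethanol-metabolising cytochrome P450 found in liver and in fat, was at 1.85, 0.411 and 1.70 CPM in CW069 1 to 3, at 0.80, 3.00 and 0.649 CPM in AZ82 1 to 3, and at 3.59, 0.128 and 1.86 CPM in Control 1 to 3. The sum of the 9 adipocyte genes left out by the rule matched it in part. That sum was 35.4, 22.04 and 29.0 CPM in CW069 1 to 3, 24.4, 90.4 and 29.7 CPM in AZ82 1 to 3, and 55.6, 24.9 and 33.4 CPM in Control 1 to 3. AZ82 2 and Control 1 were highest for both, and CW069 2 was the lowest of the 9 in the adipocyte sum and of its group in Cyp2e1. Control 2, lowest in Cyp2e1, was not the lowest in the sum. The adipocyte genes differed in range: Car3 ran from 1.54 to 29.9 CPM, Adipoq only from 10.1 to 14.2 CPM. Of these markers, Cidec was at 0 in CW069 2 and Lep at 0 in Control 1, and their part in the Cyp2e1 pattern was not tested.

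LOC115488029 and LOC118568705, named by number only, were highest in Control 2. LOC115488029 was at 1.1, 0.821 and 0.227 CPM in CW069 1 to 3, at 0.509, 1.21 and 1.15 CPM in AZ82 1 to 3, and at 2.28, 7.38 and 3.46 CPM in Control 1 to 3. LOC118568705 was at 0.137, 0.137 and 0 CPM in CW069 1 to 3 (3 counts would be 0.170 CPM in CW069 3), at 5.46, 1.5 and 1.44 CPM in AZ82 1 to 3, and at 0.828, 11.4 and 0.599 CPM in Control 1 to 3. Every Control library of LOC115488029 lay above every CW069 and AZ82 library, and every CW069 library of LOC118568705 lay below all others.

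Library by library, the number of genes on the high side of their widest gap was 24 in CW069 1 and CW069 2 and 16 in CW069 3. In AZ82 1, 2 and 3 it was 24, 20 and 15, and in the Control libraries it lay between 19 and 21. Genes with 1 library alone below their widest gap numbered 10, of which 7 had a 4-fold step: Vgll2, Rptn and Igfn1 in CW069 3, Zfp979 in AZ82 1, Ly6d in AZ82 2, P2rx5 in AZ82 3, Gm1993 in Control 1, Cck and Cyp2e1 in Control 2, and Ros1 in Control 3. Igfn1, Ly6d and Cyp2e1 were the graded ones among them. LOC115488029 was the 1 gene with a single library above its widest gap, Control 2, but it was graded too, with 7.38 CPM there and 3.46 CPM in Control 3.

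CW069 1 and CW069 2 were at least 4-fold apart in 0 of the 33 genes, whereas every other pair of libraries was that far apart in 9 to 19. The median was 13 genes over the 9 pairs within a group and 14 over the 27 pairs between groups. Apart from that 1 pair, libraries of the same group were thus about as far apart in these genes as libraries of different groups. CW069 3 was 16 genes away from each of the other CW069 libraries and 10 genes away from AZ82 3.

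**Figure D4:**
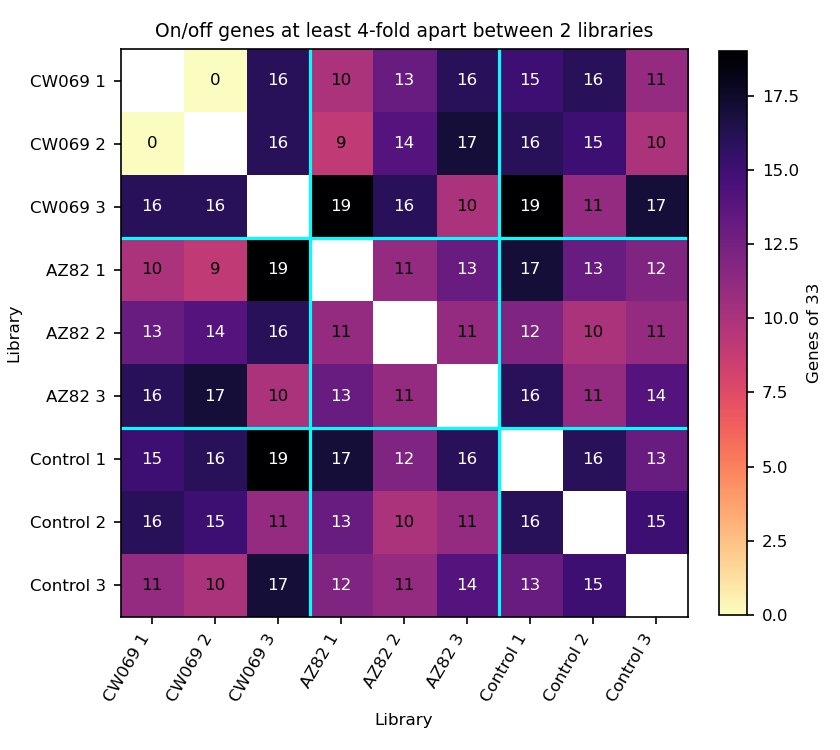
Number of the 33 on/off genes that were at least 4-fold apart (on CPM + 0.1) between each pair of libraries; rows and columns run CW069 1 to 3, AZ82 1 to 3 and Control 1 to 3, and lines divide the groups. CW069 1 and CW069 2 differed in 0 genes and all other pairs in 9 to 19.

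The groups were then compared over all 15834 genes. For CW069 against Control, 0 of 33 on/off genes and 0 of all tested genes (0.0%) passed an adjusted p of 0.05 in edgeR's quasi-likelihood test, and DESeq2 called 28 genes, 2 of them on/off. At an unadjusted p under 0.05, 8 on/off genes differed, beside 7.34% of all genes: Klk1b22, Klk1b26, Pcsk1 and Ros1 were higher (3.63% of all genes were) and Gm6124, Ibsp, LOC115488029 and LOC118568705 lower (3.71%). The groups did not overlap in 6 on/off genes, Gm6866, Klk1b26, LOC115488029, LOC118568705, Pcsk1 and Ros1, beside 13.4% of all genes (6.13% higher and 7.24% lower). The on/off genes had a median absolute log2 fold change of 1.01 with a median SE of 0.83, against 0.10 and 0.12 over all tested genes. A wide range was needed to enter the set, so neither number is a result about CW069.

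The smallest p in CW069 against Control belonged to LOC115488029, at a log2 fold change of -2.65 ± 0.55 (SE; edgeR adjusted p = 0.414), with 0.715 ± 0.444 CPM in CW069 and 4.37 ± 2.67 CPM in Control (SD, n = 3 each). Klk1b26 followed at 3.96 ± 1.00 (SE; edgeR adjusted p = 0.524), with 2.57 ± 1.86 CPM in CW069 and 0.151 ± 0.205 CPM in Control. DESeq2 called both, at 4.07 for Klk1b26 (adjusted p = 0.0198) and -2.63 for LOC115488029 (adjusted p = 0.00449). With Control 2 left out Klk1b26 had a fitted 5.90, since the 2 Control libraries that remain hold 1 and 0 of its counts. Ibsp was at -4.48 ± 1.17, LOC118568705 at -5.52 ± 1.55 and Ros1 at 2.05 ± 0.64 (SE; edgeR adjusted p of 0.524, 0.524 and 0.539). The fitted value of LOC118568705 rests on 2, 2 and 0 counts in CW069 1 to 3. Without Control 2 it was at -2.93 and Ros1 at 3.47.

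For AZ82 against Control, 0 of 33 on/off genes and 0 of all tested genes (0.0%) passed in edgeR, and DESeq2 called 6 genes, none of them on/off. At an unadjusted p under 0.05, 2 on/off genes were lower, LOC115488029 and Ly6d, and 0 higher, beside 8.84% of all genes in either direction, 4.79% lower and 4.04% higher. LOC115488029 was the 1 gene of the set whose groups did not overlap, beside 15.3% of all genes (6.65% higher and 8.62% lower). It was at -2.18 ± 0.53 (SE; edgeR adjusted p = 0.554), with 0.959 ± 0.391 CPM in AZ82 and 4.37 ± 2.67 CPM in Control (SD, n = 3 each). Ly6d was at -2.15 ± 0.57 (SE; edgeR adjusted p = 0.554), with 0.675 ± 0.346 CPM in AZ82 and 3.04 ± 1.99 CPM in Control.

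Ibsp, Gm40011 and Ros1 had the next smallest p in AZ82 against Control, at -1.96 ± 0.94, -1.46 ± 0.84 and 1.17 ± 0.69 (SE; edgeR adjusted p of 0.574, 0.613 and 0.616). All 3 turned on single libraries: Ibsp was at -0.98 without Control 1, Gm40011 at -5.00 without AZ82 1 and -0.90 without AZ82 2, and Ros1 at 0.58 without Control 3 and 2.59 without Control 2. The 2 comparisons against Control share their 3 Control libraries, so values of 1 gene in both are not independent. The median absolute log2 fold change was 0.47 over the on/off genes and 0.12 over all tested genes.

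For CW069 against AZ82, 0 of 33 on/off genes and 0 of all tested genes (0.0%) passed in edgeR, and DESeq2 called 13 genes, none of them on/off. At an unadjusted p under 0.05, 8 on/off genes differed, beside 4.97% of all genes: Gm40011, Klk1b22, Klk1b26, Ly6d, Meox1 and Pcsk1 were higher in CW069 (2.58% of all genes) and Gm6124 and LOC118568705 lower (2.39%). The groups did not overlap in 9: 2010109A12Rik, Gm1993, Gm6866, Ly6d, Meox1, Pcsk1 and Ros1 were higher in every CW069 library, and Cck and LOC118568705 lower, beside 11.3% of all genes (5.52% higher and 5.8% lower). The inhibitors were given at different doses, 50 µM for CW069 and 1 µM for AZ82, so this comparison does not set them side by side at a matched dose.

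Klk1b22 had the smallest p there, at 2.44 ± 0.76 (SE; edgeR adjusted p = 0.958), with 3.08 ± 2.41 CPM in CW069 and 0.553 ± 0.230 CPM in AZ82 (SD, n = 3 each). With CW069 3 left out, which leaves the alike pair CW069 1 and CW069 2, it was called at 2.99 (edgeR adjusted p = 0.0298). Pcsk1 was at 2.18 ± 0.70 (SE; edgeR adjusted p = 0.958), with 6.92 ± 1.44 CPM in CW069 and 1.52 ± 1.56 CPM in AZ82, and at 3.4 without AZ82 1. LOC118568705, Klk1b26 and Meox1 were at -4.90 ± 1.65, 1.94 ± 0.79 and 1.82 ± 0.76 (SE; edgeR adjusted p of 0.958, 0.977 and 0.977), and without 1 AZ82 library, AZ82 1 for Klk1b26 and AZ82 2 for Meox1, at 2.94 and 3.35. Over the on/off genes the median absolute log2 fold change was 0.95, against 0.09 over all tested genes.

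**Figure D5:**
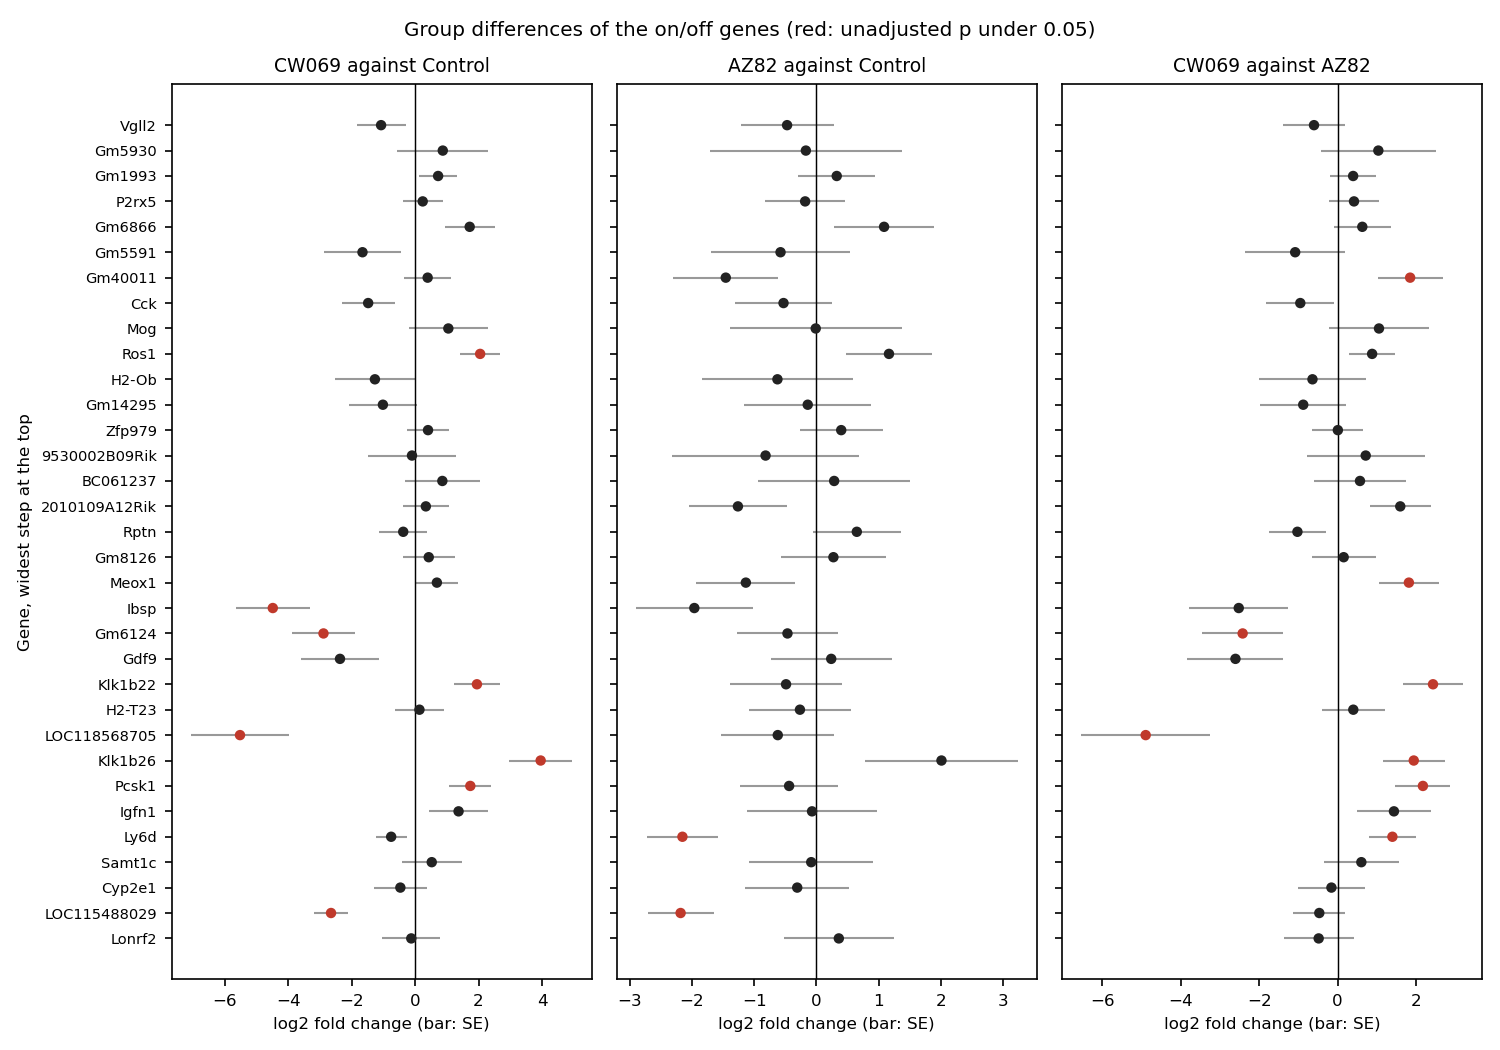
Log2 fold change (horizontal axes; bars are 1 SE) of each on/off gene (rows, widest step at the top) for CW069 against Control, AZ82 against Control and CW069 against AZ82, from edgeR; red marks an unadjusted p under 0.05. None passed an adjusted p of 0.05; 8, 2 and 8 genes are red.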

How the data were processed

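Testis libraries of ICR mice, 3 each for CW069, AZ82 and Control, were grouped by their titles in the labels. The authors deposited raw gene counts, whole numbers with no normalization, for 19991 genes; each of the 9 per-library tables equalled its column of the joint table. Per the submitters' processing notes, Trimmomatic, HISAT2 and HTSeq were used with GRCm39; settings, strand included, are not given in the sources used here. Per the labels' protocols the library kit was stranded and enriched mRNA.

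From these counts, genes were filtered with filterByExpr (15834 kept), scaled by TMM and tested in edgeR 4.0.16 under R 4.3.3, in a model of the 3 group means over all 9 libraries. The quasi-likelihood test is two-sided, and p-values were adjusted over all tested genes by Benjamini-Hochberg. Totals of 13856070 to 18102593 counts limit the precision of genes with few counts; a count of 0 was read as at most 3 counts, which covers counting error only. On simulated counts for AZ82 against Control (15716 genes) the recovery was 75% at a 2-fold change and 97% at a 4-fold change. Of 187 calls, 15 were false. These rates do not carry over to the on/off genes, for which recovery was not measured. Their median SE in AZ82 against Control was 0.84, beside 0.13 over all tested genes.

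The widest gap of a gene was taken on log2(CPM + 0.1). Gene order and promoters came from RefSeq tables (32 of 33 genes matched) and shared 31-base words from GENCODE transcripts, both of the earlier build GRCm38. Alternatives were other scaling, other filters, DESeq2 1.42.0, limma-voom (limma 3.58.1), robust dispersion, the compared groups alone, a replicate block, each library left out, other thresholds and, added after seeing the data, CW069 1 and CW069 2 summed into 1 library.

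The 33 genes, the gene lists and the tests were chosen with earlier results of these data known. Genes were named by rule: Gdf9, Cck and Gm5591, the 15 with the widest gaps outside predicted symbols, the 5 with the smallest p per comparison, neighbouring members, the 3 genes most like each marker, list members and those nearest the thresholds. The other on/off genes, neighbours and list genes in the text were picked with their values in view.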

Additional observations from a re-analysis of the deposited data

How the results depend on the processing

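Membership moved in every setting that was run. Of the 33 genes, 32 remained when the rule was applied to scaled counts, which added 1 other gene. With a highest count of at least 100 there were 15, and leaving out 1 library gave 28 to 32; 14 genes met the rule whichever library was left out. The count of 21 genes with a 4-fold step was 12 with a pseudocount of 0.5 CPM and 9 with a log2 gap of 3. The 4 genes with another member within 3 genes were 2 within 1 gene and 8 within 10 genes.

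Called genes, 0 in edgeR for each comparison, depended on the tool. For CW069 against Control there was 1 with library size alone and 28 with DESeq2, 2 of them on/off; for AZ82 against Control 1 with library size alone, 1 with limma-voom, 1 with robust dispersion and 6 with DESeq2; for CW069 against AZ82 13 with DESeq2 and 8 with the compared groups alone. Leaving out 1 library gave 0 to 7, 0 to 4 and 0 to 4 called genes in those comparisons, and 0 to 1 on/off genes in each. Gm6866 was called without Control 2, at 5.16 for CW069 against Control (adjusted p = 2.65e-05) and 4.53 for AZ82 against Control (adjusted p = 0.00013), 2010109A12Rik for CW069 against AZ82 without AZ82 2, at 4.39 (adjusted p = 0.0418), and Klk1b22 without CW069 3. In each case the library left out stood apart from its group. Gm6866 had 6, 211 and 7 counts in Control 1 to 3, and 2010109A12Rik had 11, 239 and 14 in AZ82 1 to 3. Klk1b22 had 71, 59 and 6 counts in CW069 1 to 3. Why those libraries differed, and why the number of called genes changed with the tool, was not tested.

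Replicate numbers did not pair the libraries: the deviations of same-numbered libraries had r from -0.15 to 0.04, with 0 of 9 over 0.1. With the replicate number as a block, 0 genes and 0 on/off genes were called in all 3 comparisons, as with CW069 1 and CW069 2 summed. For the 5 on/off genes with the smallest p in each comparison, 279 alternative fold changes kept their direction and gained no call, 3 gained a call and 0 reversed. The 279 include LOC118568705 in DESeq2 for CW069 against Control, which had no adjusted p. With CW069 and Control alone, Klk1b26 and LOC118568705 had no value to count. The calls of Gm6866 and 2010109A12Rik above are outside this tally. Counts of 10 or fewer in the low libraries limit how far below the high ones a gene lay.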
